A study of Mus musculus with 24 samples.

Results

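Chromatin accessibility was examined at the genes of the matrix metalloproteinases Mmp3, Mmp8, Mmp9, Mmp10, Mmp12, Mmp13, Mmp14, Mmp19 and Mmp27 and of their inhibitor Timp1. A consensus ATAC-seq peak was counted with these 10 genes where it overlapped the gene body or the 20 kb on either side of it (mm10, GENCODE vM21), and each peak was given to its nearest gene. The rule took 81 of the 184158 consensus peaks, of which 79 held enough counts to be tested; the other two, Mmp13 +5.1 kb and Mmp13 +11.1 kb, held at most 1.14 CPM. The libraries came from bone marrow-derived macrophages (BMDMs) grown in 10% serum with GM-CSF (10 ng/ml) and TGF-β at 2 ng/ml, conditions that give alveolar-like macrophages. There were 4 groups of 6 libraries each: wildtype (WT) unstimulated, AhR-KO unstimulated, WT with LPS and AhR-KO with LPS. WT mice were C57/B6/J, and AhR-KO mice carried the germline null allele of the B6.129-Ahr tm1Bra/J strain in every cell. LPS was given at 97 EU/ml on day 6 for 24 h, and 5 µM of the calcium ionophore A23187 was present for the last 10 min. The labels attach this treatment text to every library, so that it is not given whether the unstimulated cells received the ionophore. The methods give 6 animals per group from 1 experiment, and the labels do not say whether the unstimulated and the LPS-stimulated cells came from the same animals.

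Matrix metalloproteinases are zinc-dependent endopeptidases that are made as inactive proenzymes and, once activated, cleave collagens, elastin, proteoglycans and other proteins of the extracellular matrix. Most are secreted, while Mmp14 is anchored in the membrane. Tissue inhibitors such as Timp1 bind the active enzymes and block them. Macrophages are known as a main source of the elastase Mmp12, and AhR, the aryl hydrocarbon receptor, is a transcription factor of the same cells that is switched on by ligands.

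Of the 10 genes, Mmp13, Mmp12, Mmp3, Mmp10, Mmp8 and Mmp27 lie in this order in 1 cluster on chromosome 9, between chr9:7272514 and chr9:7581885, all on the plus strand. Mmp9 is on chromosome 2, Mmp14 on chromosome 14, Mmp19 on chromosome 10, and Timp1 on chromosome X inside an intron of Syn1, a neuronal gene. The cluster held 47 of the 81 peaks. Below, a peak is named by its gene and by the distance of its centre from the gene's annotated 5′ end, with a minus sign for upstream. Since 6 of the 81 peaks also cover the start of another protein-coding gene, a change in them cannot be given to the metalloproteinase alone.

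RefSeq promoter sequences (GRCm38.p6) were found for 8 of the 10 genes, with 2 starts for Mmp12; Mmp9 and Mmp19 had no entry. The motif TGANTCA, the binding sequence of AP-1 (searched on both strands), stood in the 250 bases before the start in 4 of the 9 promoters, and in 6.75% of all 32851 promoters in the table. The 4 matches begin between −63 and −35 relative to the start, and the sequences are shown for that reason. The last 120 bases before each start follow, 5′ to 3′ on the gene's strand, with the AP-1 match in capitals, and the promoters of Mmp8 and Timp1, which hold no match, stand below them for comparison.
Mmp13, chr9:7272394-7272513: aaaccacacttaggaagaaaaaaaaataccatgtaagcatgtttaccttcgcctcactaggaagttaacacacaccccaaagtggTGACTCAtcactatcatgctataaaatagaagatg
Mmp12 downstream start, chr9:7347254-7347373: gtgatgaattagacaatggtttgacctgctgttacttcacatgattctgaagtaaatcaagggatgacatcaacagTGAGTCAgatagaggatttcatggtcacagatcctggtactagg
Mmp3, chr9:7445702-7445821: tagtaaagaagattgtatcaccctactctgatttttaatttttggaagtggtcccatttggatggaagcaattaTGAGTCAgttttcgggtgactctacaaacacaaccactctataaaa
Mmp10, chr9:7502222-7502341: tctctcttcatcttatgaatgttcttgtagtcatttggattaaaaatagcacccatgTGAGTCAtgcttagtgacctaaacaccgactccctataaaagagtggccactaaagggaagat
Mmp8, chr9:7558309-7558428: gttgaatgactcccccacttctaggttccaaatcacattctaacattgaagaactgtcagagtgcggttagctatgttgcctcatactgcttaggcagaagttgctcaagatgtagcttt
Timp1, chrX:20870046-20870165: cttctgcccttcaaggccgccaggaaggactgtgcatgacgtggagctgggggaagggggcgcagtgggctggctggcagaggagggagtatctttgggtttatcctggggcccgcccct

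The C/EBP motif TTGCNNAA was found in 5 of the same 9 promoters, and in 9.56% of all promoters. PU.1 (GAGGAAGT) matched in 2 promoters, those of Mmp8 and of the upstream start of Mmp12, against 2.44% of all. The core sequence bound by AhR, GCGTG, matched only in the promoter of Timp1, starting at −206, and is present in 28.2% of all promoters. No promoter of the 9 held the CRE motif TGACGTCA, which 1.55% of all promoters hold, or the NF-kB motif, which 3.90% hold. A match is a stretch of letters and not a known binding site.

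The central 300 bases of 5 peaks away from the starts are printed next, because they hold the 4 largest called log2 fold changes with LPS in WT and the largest of AhR-KO over WT with LPS (plus strand, GRCm38.p6). Capitals mark the matches that the name of each line gives. The Mmp13 −10.8 kb peak also holds 1 AP-1 match outside the printed bases.
Mmp12 −3.5 kb (AP-1), chr9:7340772-7341071: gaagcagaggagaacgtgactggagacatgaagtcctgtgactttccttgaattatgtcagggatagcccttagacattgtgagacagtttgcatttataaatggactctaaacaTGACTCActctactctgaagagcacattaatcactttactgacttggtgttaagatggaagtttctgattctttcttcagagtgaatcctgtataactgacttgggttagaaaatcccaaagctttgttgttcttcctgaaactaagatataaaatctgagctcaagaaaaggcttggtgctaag
Mmp14 +14.6 kb (AP-1), chr14:54446051-54446350: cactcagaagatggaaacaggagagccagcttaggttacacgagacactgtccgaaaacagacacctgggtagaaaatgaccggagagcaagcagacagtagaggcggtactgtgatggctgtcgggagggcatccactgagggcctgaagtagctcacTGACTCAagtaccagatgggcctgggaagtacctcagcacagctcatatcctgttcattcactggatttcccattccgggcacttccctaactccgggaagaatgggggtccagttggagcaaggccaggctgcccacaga
Mmp10 −11.9 kb (AP-1 on the left, overlapping NF-kB matches on the right), chr9:7490292-7490591: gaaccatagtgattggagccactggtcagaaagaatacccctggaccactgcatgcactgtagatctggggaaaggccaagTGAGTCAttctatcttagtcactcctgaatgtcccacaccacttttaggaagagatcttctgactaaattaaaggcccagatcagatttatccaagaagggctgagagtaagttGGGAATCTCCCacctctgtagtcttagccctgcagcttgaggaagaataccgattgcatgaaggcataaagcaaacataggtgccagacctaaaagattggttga
Mmp13 −10.8 kb (C/EBP, then GCGTG on the minus strand), chr9:7261538-7261837: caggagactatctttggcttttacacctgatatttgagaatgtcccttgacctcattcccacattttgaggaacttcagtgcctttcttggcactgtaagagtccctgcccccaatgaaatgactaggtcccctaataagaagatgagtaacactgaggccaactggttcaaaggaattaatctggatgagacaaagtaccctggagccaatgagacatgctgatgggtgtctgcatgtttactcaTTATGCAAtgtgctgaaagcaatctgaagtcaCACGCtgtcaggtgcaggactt
Timp1 +6.0 kb (GCGTG on the minus strand), chrX:20876029-20876328: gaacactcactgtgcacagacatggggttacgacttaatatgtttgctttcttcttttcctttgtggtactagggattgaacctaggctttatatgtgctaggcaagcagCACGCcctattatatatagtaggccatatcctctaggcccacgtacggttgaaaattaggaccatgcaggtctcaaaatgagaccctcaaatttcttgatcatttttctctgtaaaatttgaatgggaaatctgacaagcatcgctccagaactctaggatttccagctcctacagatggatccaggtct

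Over the central 300 bases of all 81 peaks, AP-1 was found in 20.99%, against 17.9% of 184060 consensus peaks on the assembled chromosomes. C/EBP was found in 20.99% against 15.7%, PU.1 in 7.41% against 7.34%, NF-kB in 3.70% against 4.86%, GCGTG in 11.1% against 16.02% and CRE in 1.23% against 0.464%. These shares are a description with no test.

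The libraries held between 8.54 M and 34.6 M counts in peaks, and levels are given as CPM, library-size scaled counts, after TMM normalisation. A difference was called where the edgeR quasi-likelihood test gave a Benjamini-Hochberg adjusted p of at most 0.05 over all 174193 tested peaks and a fold change of at least 1.5, and the adjusted p-values below are from this test. Exon 2 of Ahr, which the null allele lacks, has no consensus peak, and the peak at the Ahr start lies outside the deletion and checks nothing about it (medians of 22.2 CPM in WT and 13.1 CPM in AhR-KO without LPS). Chromosome Y peaks summed to 189 to 275 CPM in 22 libraries and to 118 and 90.1 CPM in WT unstimulated 6 and WT LPS 6. Results were therefore also computed without these 2 libraries. Of marker genes, 7 of 7 for macrophages and 5 of 5 for alveolar-like macrophages had a start site peak, and none of 3 for T cells. The sum of the 7 macrophage markers was 157 to 201 CPM in AhR-KO and 136 to 155 CPM in WT without LPS. With LPS it was 114 to 155 CPM in AhR-KO and 121 to 136 CPM in WT. None of the 7 was called for genotype in either treatment. Among 9 neutrophil markers, Ly6g, Elane and Mpo had no peak at the start, and among 8 fibroblast markers Col3a1, Dcn and Lum had none. The fibroblast sum was 25.7 to 35.4 CPM over all 24 libraries. The sum of 4 dendritic cell markers was 26.9 to 33.1 CPM in AhR-KO with LPS, against a mean of 44.3 CPM in WT with LPS, and 2 B cell markers summed to at most 5.38 CPM. In these bulk libraries, fewer cells of a type and less signal per cell cannot be told apart. P-values measure the spread between these libraries.

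Start sites of the members were mostly open in all 4 groups. A start site peak was found for 9 of the 10 genes, and none for Mmp3, a stromelysin. Per kilobase of peak, the mean over the groups was highest at Mmp8, a collagenase best known from neutrophils (19.8 CPM per kb), followed by the downstream start of Mmp12 (17.8), Mmp14 (11.2), Mmp27 (6.71), Mmp19 (5.65), Mmp13 (4.94), Timp1 (4.65), Mmp9 (4.45) and Mmp10 (1.27). In this order the neighbours from Mmp19 to Mmp9 lay close together, and their order differed between the groups. The first 2 also changed places with LPS, where the downstream start of Mmp12 had 17.7 CPM per kb in WT and 19.8 in AhR-KO, against 16.9 and 15.8 at Mmp8. The peaks were also called in every one of the 6 libraries' own peak lists for 6 of the 9 start sites in WT unstimulated, 7 in AhR-KO unstimulated, and 8 in each LPS group. Mmp10 and the Mmp9 +6.8 kb peak, which ends just before the start of the Mmp9 transcript of the basic annotation (the 5′ end of the gene comes from a longer model), were in no unstimulated library's list and in 5 or 6 libraries of each LPS group. Depth differs between the libraries, and such calls move with it.

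**Figure D1:**
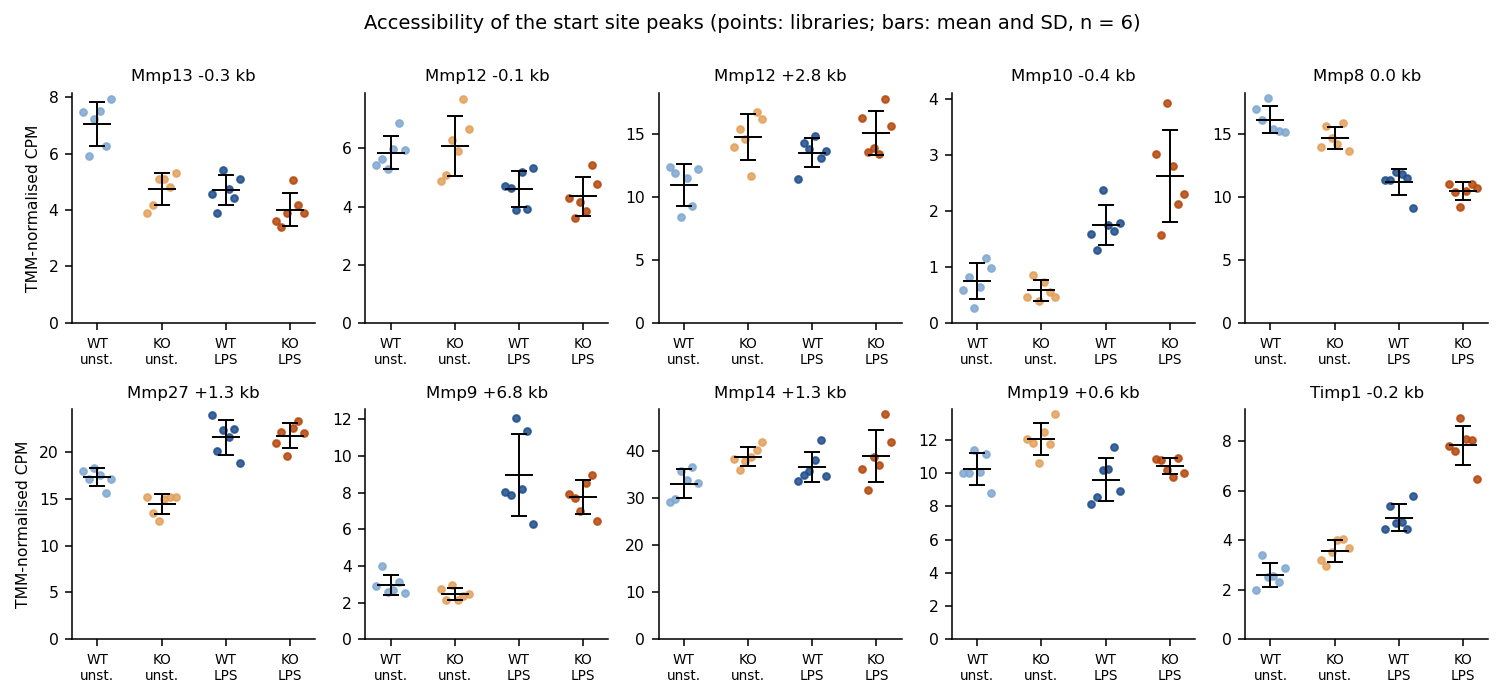
Accessibility of the start site peaks in the 4 groups. The peak at the 5′ end of Mmp12 (−0.1 kb) is shown as well. Each point is 1 library (TMM-normalised CPM, y axis), bars are the mean and SD of 6 libraries, and panels are named by gene and by the kb from its 5′ end. Mmp9, Mmp10 and Timp1 stand higher in the LPS groups, whereas Mmp14 and Mmp19 overlap in all 4 groups.

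The first question was whether the loss of AhR altered these loci. Without LPS, 8 of the 79 tested peaks were higher and 8 lower in AhR-KO, and with LPS 10 were higher and 5 lower. Over all tested peaks 22.6% were called without LPS (9.95% higher and 12.6% lower) and 26.5% with LPS (13.4% higher and 13.1% lower). The share called among the members, 20.3% and 18.99%, was thus not above the background. The higher peaks were found mainly at Mmp12 and Timp1 (7 of 8 without LPS, 8 of 10 with LPS), and the others at Mmp13. The lower peaks were scattered over Mmp3, Mmp8, Mmp9, Mmp10, Mmp14, Mmp19 and Mmp27. In both treatments alike 5 peaks were called higher and 3 lower, and no peak was called in opposite directions. The median log2 fold change over the members was −0.05 without LPS and 0.01 with LPS, and over all tested peaks −0.02 and 0.02.

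Mmp12, the macrophage elastase, was more accessible in AhR-KO at 3 peaks of its gene body, from +8.4 kb to +17.2 kb, while no peak at its starts was called. The +17.2 kb peak (chr9:7359126-7364123, 4998 bases over exon and UTR sequence of Mmp12) held a lowest, median and highest value of 6.89, 10.0 and 12.2 CPM in WT unstimulated and of 16.4, 23.9 and 37.98 CPM in AhR-KO unstimulated. With LPS it held 13.99, 22.8 and 25.4 CPM in WT and 38.3, 47.5 and 64.7 CPM in AhR-KO. The genotypes did not overlap in either treatment. The log2 fold change of AhR-KO over WT was 1.37 ± 0.19 (SE; adjusted p = 4.38e-06) without LPS and 1.19 ± 0.17 (adjusted p = 4.58e-06) with LPS.

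The +8.4 kb and +11.4 kb peaks did the same. At +8.4 kb (chr9:7351021-7354585, over exons) the values were 4.94, 5.96 and 6.97 CPM in WT unstimulated, 8.65, 12.7 and 24.1 CPM in AhR-KO unstimulated, 8.81, 13.8 and 15.9 CPM in WT with LPS and 18.9, 27.6 and 41.5 CPM in AhR-KO with LPS. All AhR-KO libraries lay above all WT libraries of the same treatment (log2 fold changes of 1.21 ± 0.23 and 1.13 ± 0.20, adjusted p = 0.000205 and 6.58e-05). At +11.4 kb the log2 fold changes were 0.90 ± 0.16 and 0.83 ± 0.13 (adjusted p = 2.21e-05 and 4.55e-06), and again the genotypes did not overlap. By contrast, the peak at the 5′ end of Mmp12 (−0.1 kb) had means of 5.85 ± 0.565 CPM in WT and 6.08 ± 1.05 CPM in AhR-KO before LPS (SD, n = 6), with a 95% interval of the log2 difference from −0.16 to 0.30. At the downstream start (+2.8 kb) AhR-KO had a log2 difference of 0.42 ± 0.10 without LPS and 0.16 ± 0.09 with LPS, below the fold threshold in both. The +1.4 kb peak, in an intron, was not higher in AhR-KO (−0.08 ± 0.07 and −0.23 ± 0.07). None of the 7 tested peaks from −13.8 kb to −0.1 kb was called for genotype. With LPS, 3 of them passed the adjusted p and stayed below the fold threshold, namely −12.0 kb (0.37 ± 0.06, adjusted p = 2.3e-06), −3.5 kb (0.57 ± 0.11, adjusted p = 8.96e-05) and −1.1 kb (0.45 ± 0.10, adjusted p = 0.000452). The −3.5 kb peak was called higher with other scaling (RLE, 0.59), with DESeq2 (0.59) and without WT LPS 3 or 5 or AhR-KO LPS 1 or 2 (up to 0.64). Beside this, the start site peaks of 3 of the 5 alveolar-like macrophage markers (Car4, Itgax and Marco) were called higher in AhR-KO without LPS, where the summed level of the 5 was 71.1 to 88.2 CPM against 48.1 to 58.4 CPM in WT. With LPS none of the 5 was called (52.8 to 67.5 CPM in AhR-KO and 44.1 to 54.3 CPM in WT), and the 3 Mmp12 peaks were still higher. The part of these cells in the result was not tested.

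**Figure D2:**
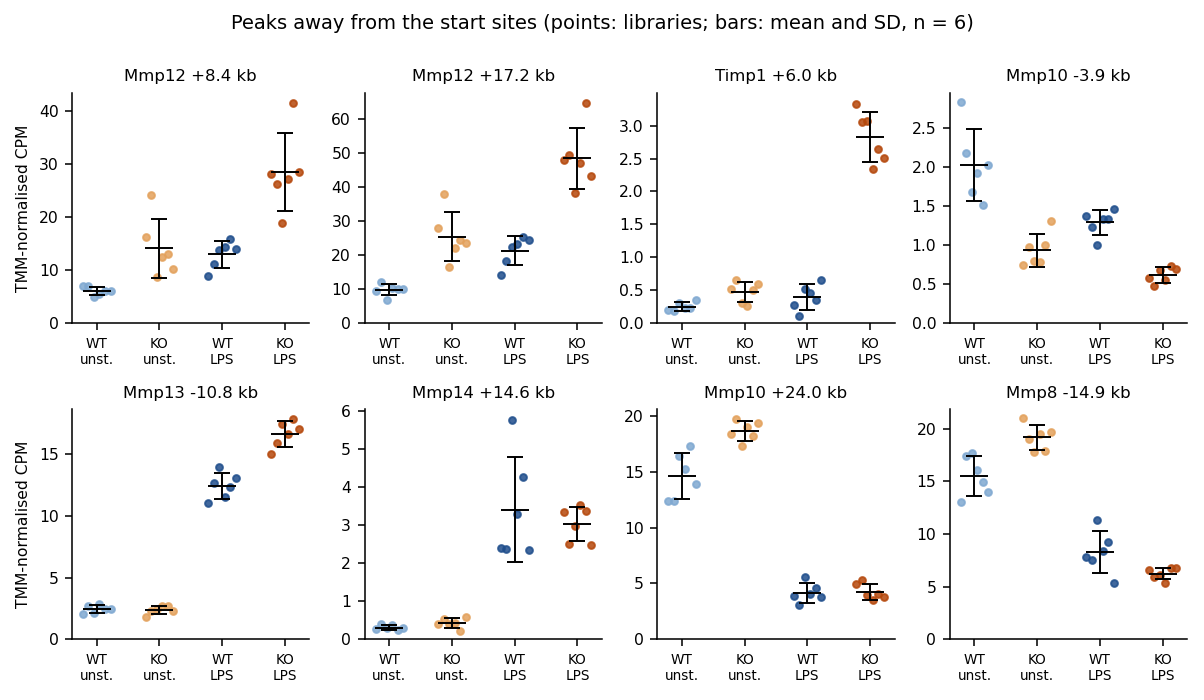
Accessibility of 8 peaks away from the start sites in the 4 groups. Points are libraries (TMM-normalised CPM, y axis) and bars the mean and SD of 6 libraries. AhR-KO stands above WT in both treatments at the Mmp12 +8.4 and +17.2 kb peaks, and AhR-KO with LPS stands apart from the other groups at Timp1 +6.0 kb (2.34 to 3.34 CPM). Only libraries of that group had the Timp1 +6.0 kb peak in their own peak lists.

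Timp1, which inhibits most of the secreted metalloproteinases, was the other locus with higher accessibility in AhR-KO. Its start site peak (chrX:20869419-20870436) held 1.98, 2.55 and 3.40 CPM in WT unstimulated (lowest, median and highest), 2.98, 3.60 and 4.06 CPM in AhR-KO unstimulated, 4.43, 4.72 and 5.77 CPM in WT with LPS and 6.49, 7.92 and 8.94 CPM in AhR-KO with LPS. The genotypes overlapped without LPS and did not with LPS. The log2 fold change was 0.43 ± 0.13 without LPS, which is below the fold threshold, and 0.67 ± 0.10 with LPS (adjusted p = 2.01e-06). The difference between these 2 effects was 0.24 ± 0.16 (adjusted p = 0.336), so that they were not shown to differ.

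Around the Timp1 start, the −2.2 kb peak, in the intron of Syn1, was higher in AhR-KO without LPS (log2 fold change of 0.78 ± 0.08, adjusted p = 1.08e-09) and below the fold threshold with LPS (0.48 ± 0.07). The +8.2 kb peak was higher in both treatments (1.29 ± 0.22 and 0.83 ± 0.17, adjusted p = 1.13e-05 and 0.00011). The largest genotype difference of all 79 peaks with LPS was at Timp1 +6.0 kb (chrX:20875325-20877032, in an intron of Syn1 downstream of Timp1), where the lowest, median and highest values were 0.174, 0.231 and 0.347 CPM in WT unstimulated, 0.261, 0.506 and 0.649 CPM in AhR-KO unstimulated, 0.0999, 0.405 and 0.652 CPM in WT with LPS and 2.34, 2.85 and 3.34 CPM in AhR-KO with LPS. The 6 AhR-KO libraries with LPS lay above all other 18 libraries, and the other 3 groups held only 2 to 20 counts per library there. The peak was in the own peak lists of 5 AhR-KO libraries with LPS and of no library of the other 3 groups. It thus entered the consensus set only through the group where it is high. That choice favours a large difference here, so its size and p-value are no independent support. The log2 fold change was 2.83 ± 0.22 with LPS (adjusted p = 1.53e-12) and 0.88 ± 0.34 without LPS (adjusted p = 0.0375). The call without LPS was lost when WT unstimulated 1, 2 or 4 or AhR-KO unstimulated 1, 2, 5 or 6 was left out (adjusted p of 0.0578 to 0.0920). Without both WT libraries of low chromosome Y counts, the log2 fold changes were 1.02 and 3.05 at Timp1 +6.0 kb and 0.47 and 0.74 at the start, and neither peak changed its calls.

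Peaks that were less accessible in AhR-KO in both treatments were found at Mmp10, Mmp27 and Mmp9. The Mmp10 −3.9 kb peak (chr9:7498119-7498824), upstream of a stromelysin gene, held 1.51, 1.98 and 2.84 CPM in WT unstimulated against 0.747, 0.882 and 1.31 CPM in AhR-KO, and 1.005, 1.33 and 1.47 CPM in WT with LPS against 0.473, 0.626 and 0.733 CPM in AhR-KO. The genotypes did not overlap in either treatment (log2 fold changes of −1.13 ± 0.17 and −1.07 ± 0.18, adjusted p = 2.18e-06 and 8.99e-06). At the Mmp10 start, AhR-KO was higher with LPS (0.575, adjusted p = 0.0146), just below the fold threshold. This start site peak was called higher with RLE scaling and DESeq2 (0.59 in both), and without WT LPS 3 or AhR-KO LPS 2, 5 or 6 (up to 0.69). Downstream of Mmp27, the least studied enzyme of the cluster, the +22.3 kb peak had log2 fold changes of −0.81 ± 0.13 and −0.96 ± 0.12 (adjusted p = 2.66e-06 and 7.55e-08). At Mmp9, the gelatinase of many myeloid cells, the +32.2 kb peak in an intron of Slc12a5 was lower (−0.99 ± 0.27 and −0.75 ± 0.20, adjusted p = 0.0031 and 0.0024) at levels of 0.217 to 1.26 CPM over all 24 libraries.

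Further peaks were called for genotype in 1 treatment. Without LPS, Mmp3 −13.9 kb, Mmp3 +6.5 kb, Mmp8 −4.3 kb, Mmp9 −1.6 kb and Mmp19 +4.0 kb were lower in AhR-KO (log2 fold changes of −0.77, −0.98, −0.63, −0.60 and −0.71) and Mmp13 −15.3 kb and Timp1 −8.0 kb higher (0.99 and 0.60). The Mmp3 +6.5 kb call was lost without WT unstimulated 4 or 6 or AhR-KO unstimulated 1, 2 or 3 (adjusted p of 0.0570 to 0.0688). It was lost with DESeq2 as well (adjusted p = 0.0606). Close to the 1.5-fold threshold, the Mmp8 call was lost without WT unstimulated 4 (−0.58). RLE scaling and DESeq2 did not call this Mmp8 peak either (−0.57 in both). With LPS the same peak had −0.56 (adjusted p = 3.29e-05), just below the fold threshold. It was called there without WT LPS 6 or AhR-KO LPS 5. Mmp19 +4.0 kb had −0.52 with LPS (adjusted p = 0.0152) and was called there without WT LPS 3 or AhR-KO LPS 4. The Mmp9 call was lost without WT unstimulated 5, AhR-KO unstimulated 2, 3 or 5 or AhR-KO LPS 3 (−0.52 nearest to 0). It was also lost with RLE scaling (−0.54) and with DESeq2 (−0.53). The Timp1 call was lost without WT unstimulated 1, 5 or 6 or AhR-KO unstimulated 2 (0.54 nearest to 0). Besides these, with LPS, Mmp8 −6.3 kb and Mmp14 −13.8 kb were lower (−0.69 and −0.99), and Mmp13 −17.0 kb, Mmp13 −12.4 kb, Timp1 −0.2 kb, Timp1 +3.0 kb and Timp1 +10.7 kb were higher (1.11, 0.86, 0.67, 0.98 and 1.12). The Mmp8 −6.3 kb call was lost without WT LPS 3 (log2 fold change of −0.55), and Mmp14 −13.8 kb is the start of Slc7a7, an amino acid transporter gene. Mmp13 −17.0 kb was in the own peak lists of only 2 libraries and Timp1 +10.7 kb of only 1, all of AhR-KO with LPS. Both thus entered the consensus set through the group where they are high.

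At the start sites of the collagenases and of the membrane-bound enzyme, no genotype call was made. Mmp13, a collagenase, had 5.93, 7.35 and 7.92 CPM at its start (chr9:7271677-7272713) in WT unstimulated and 3.89, 4.96 and 5.30 CPM in AhR-KO unstimulated. These groups did not overlap (log2 fold change of −0.58 ± 0.11, adjusted p = 5.1e-05), and the difference lay just below 1.5-fold. It was called lower without WT unstimulated 2 or 5 or AhR-KO unstimulated 3, 4, 5 or 6 (log2 fold changes of −0.53 to −0.63 over all leave-outs of 1 library). At the Mmp8 start, the 95% interval of the log2 difference was −0.24 to 0.05 with LPS, and at the Mmp14 start 0.09 to 0.38 without LPS and −0.05 to 0.23 with LPS. Mmp19, an enzyme of broad tissue distribution, had intervals of 0.07 to 0.41 and −0.04 to 0.28. A difference of 1.5-fold, 0.58 on this scale, lies outside each of these intervals.

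**Figure D3:**
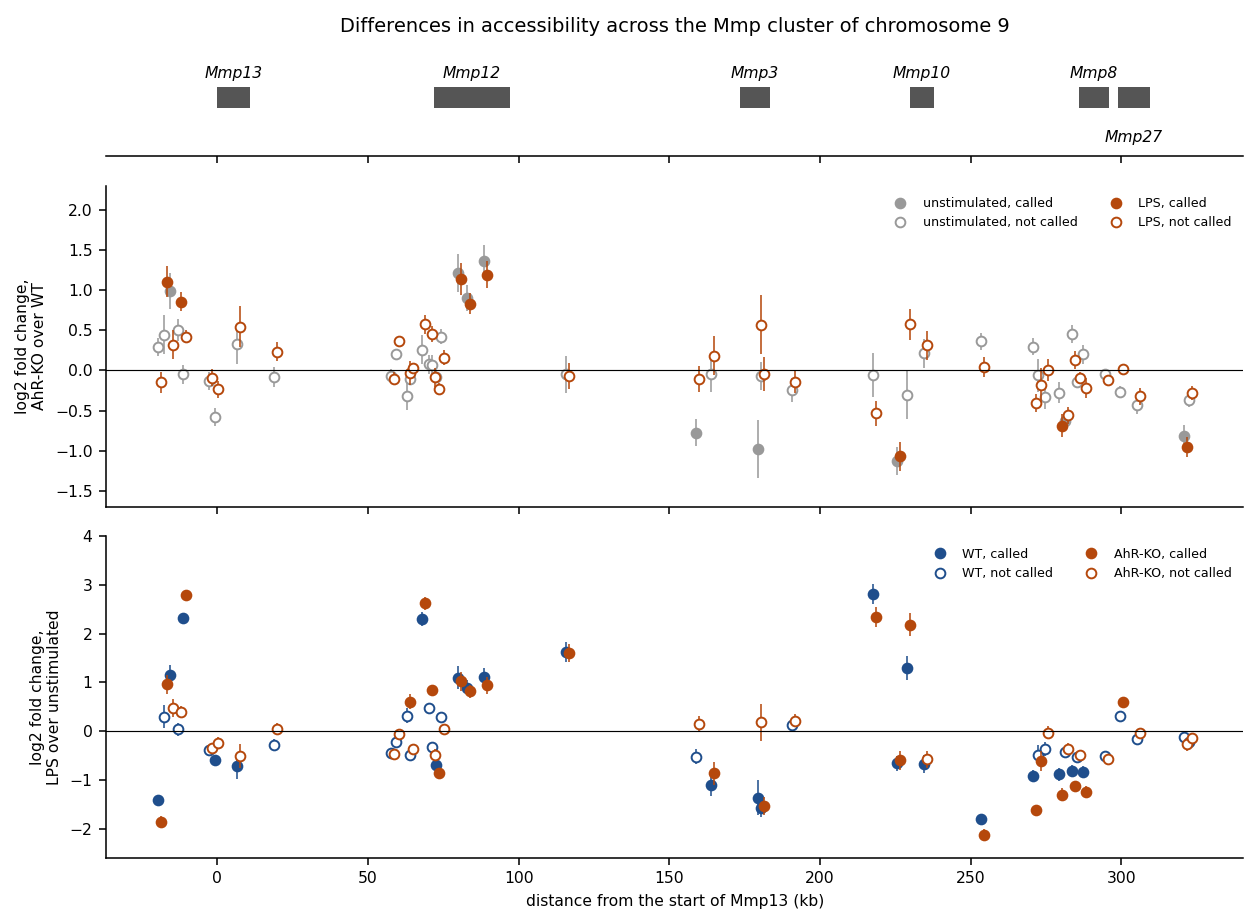
Differences across the Mmp cluster of chromosome 9 by distance from the start of Mmp13 (x axis, kb). The upper bars are gene bodies, the middle panel gives log2 fold changes of AhR-KO over WT and the lower panel of LPS over unstimulated, with SE; filled points were called. The Mmp12 +8.4, +11.4 and +17.2 kb peaks stand out in the middle panel (0.83 to 1.37), and LPS effects of both signs alternate along the cluster.

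The second comparison was LPS against unstimulated cells. In WT, 21 of the 79 peaks were higher and 14 lower with LPS, and in AhR-KO 26 were higher and 14 lower. Over all tested peaks, 47.0% were called in WT (25.4% higher and 21.6% lower) and 48.8% in AhR-KO (27.3% higher and 21.5% lower), against 44.3% and 50.6% of the members. In both genotypes 20 peaks were called higher and 10 lower, and no peak was called in opposite directions. The 14 lower peaks in WT all lay in the chromosome 9 cluster, where 9 of 45 tested peaks were higher. At Mmp9, Mmp14, Mmp19 and Timp1 12 peaks were called higher in WT and none lower, and in AhR-KO 14 higher and 3 lower. The median log2 fold change over the members was −0.05 in WT and 0.05 in AhR-KO, and over all tested peaks −0.01 and 0.05.

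Mmp13 had the peak with the smallest adjusted p in both genotypes. The −10.8 kb peak (chr9:7261258-7262118), between genes, held 2.05, 2.46 and 2.85 CPM in WT unstimulated and 11.03, 12.5 and 13.95 CPM in WT with LPS. In AhR-KO it held 1.85, 2.39 and 2.74 CPM and 14.995, 16.8 and 17.8 CPM. The groups with and without LPS were far apart (log2 fold changes of 2.33 ± 0.10 and 2.80 ± 0.10, adjusted p = 5.98e-21 and 5.25e-24). At −19.2 kb the same gene had the opposite change (−1.42 in WT and −1.86 in AhR-KO). Its start site peak was called lower in WT only (−0.59 ± 0.11 in WT and −0.24 ± 0.11 in AhR-KO). The difference between the genotypes was 0.35 ± 0.16 (adjusted p = 0.127). The WT call was lost without any of 8 single libraries, namely WT unstimulated 1, 3, 4 or 6, WT LPS 1, 2 or 5, or AhR-KO LPS 3 (−0.54 nearest to 0). It was also lost with RLE scaling and with DESeq2 (−0.58 in both).

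At Mmp12, 5 peaks were higher and 1 lower with LPS in both genotypes. The −3.5 kb peak (chr9:7340712-7341131), whose central sequence with 1 AP-1 match is printed above, held 0.814, 1.10 and 1.79 CPM in WT unstimulated against 5.15, 5.78 and 7.46 CPM with LPS, and 1.23, 1.49 and 1.73 CPM in AhR-KO against 7.35, 9.24 and 10.3 CPM with LPS. The log2 fold changes were 2.31 ± 0.15 and 2.62 ± 0.14 (adjusted p = 8.81e-16 and 1.17e-18). In AhR-KO, −8.4 kb and −1.1 kb were higher too (0.61 and 0.84), the first not without AhR-KO unstimulated 1 or AhR-KO LPS 5 or 6. The −8.4 kb call was also lost with RLE scaling and with DESeq2 (0.57 in both). The peaks from +8.4 kb to +17.2 kb rose in both genotypes (1.10 and 1.02 at +8.4 kb, 0.89 and 0.82 at +11.4 kb, 1.12 and 0.94 at +17.2 kb), whereas the +1.4 kb peak in an intron was lower in both (−0.70 ± 0.07 and −0.85 ± 0.07). The +44.3 kb peak at the start of Mmp1b, a related gene of the family, was also higher (1.62 and 1.60). By the medians, AhR-KO with LPS had the highest level at the +8.4 kb and +17.2 kb peaks and WT unstimulated the lowest, while WT with LPS and AhR-KO unstimulated overlapped.

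At the stromelysin genes, the start site peak of Mmp10 (chr9:7501348-7502466), which contains the AP-1 match printed above, held 0.265, 0.736 and 1.16 CPM in WT unstimulated and 1.30, 1.70 and 2.38 CPM with LPS. In AhR-KO it held 0.395, 0.510 and 0.866 CPM and 1.56, 2.56 and 3.93 CPM. In both genotypes all LPS libraries lay above all unstimulated ones (log2 fold changes of 1.30 ± 0.24 and 2.18 ± 0.24, adjusted p = 2e-05 and 4.29e-10). The difference between the genotypes was 0.88 ± 0.36 (adjusted p = 0.088), and it was called without WT unstimulated 3, WT LPS 3 or AhR-KO LPS 2 (adjusted p of 0.0249 to 0.0444). The Mmp10 −11.9 kb peak, with AP-1 and NF-kB matches, rose from a mean of 0.606 ± 0.247 (SD, n = 6) to 4.26 ± 0.945 CPM in WT and from 0.590 ± 0.186 to 2.96 ± 0.498 CPM in AhR-KO (2.81 ± 0.21 and 2.34 ± 0.21, adjusted p = 2.37e-14 and 1.98e-12).

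On the other side of Mmp10 the change was downward. The +24.0 kb peak (chr9:7525844-7526818), between Mmp10 and Mmp8, fell from 12.3, 14.5 and 17.3 CPM to 3.03, 3.95 and 5.54 CPM in WT and from 17.3, 18.7 and 19.7 CPM to 3.48, 4.002 and 5.31 CPM in AhR-KO (−1.80 ± 0.11 and −2.12 ± 0.11, adjusted p = 2.52e-16 and 1.05e-18). Mmp3, which had no start site peak although its promoter holds an AP-1 match, had lower peaks at +7.5 kb (−1.57 ± 0.19 and −1.54 ± 0.19, adjusted p = 6.08e-09 and 9.98e-09) and at −9.0 kb (−1.10 and −0.87). No peak of Mmp3 was called higher with LPS.

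The peaks of Mmp8 were lower or not called. The −14.9 kb peak (chr9:7543000-7544085) held 13.01, 15.5 and 17.7 CPM in WT unstimulated and 5.31, 8.13 and 11.4 CPM with LPS, and 17.8, 19.2 and 21.05 CPM in AhR-KO and 5.38, 6.35 and 6.76 CPM with LPS. The treatments did not overlap in either genotype (−0.91 ± 0.11 and −1.62 ± 0.11, adjusted p = 7e-09 and 7.57e-15). Called lower in both genotypes were also −6.3 kb (−0.89 and −1.30), −1.9 kb (−0.81 and −1.14) and +1.9 kb (−0.84 and −1.25). At the start, means were 16.1 ± 1.08 CPM and 11.2 ± 1.03 CPM in WT and 14.6 ± 0.9001 CPM and 10.4 ± 0.684 CPM in AhR-KO (SD, n = 6), which did not overlap between the treatments but stayed below 1.5-fold (−0.53 ± 0.07 and −0.48 ± 0.07). Mmp8 is known as a neutrophil gene, and of the 6 neutrophil markers with a start site peak 2 (S100a9 and Ngp) were lower and 1 (Camp) higher with LPS in each genotype. Their summed level was 38.1 to 53.6 CPM in WT and 39.4 to 43.5 CPM in AhR-KO without LPS, and 39.4 to 58.5 CPM and 47.8 to 57.0 CPM with LPS. The start of Camp alone went from a mean of 13.9 to 25.3 CPM in WT and from 12.2 to 30.1 CPM in AhR-KO, while the median log2 fold change with LPS over the 6 markers was −0.44 in WT and −0.26 in AhR-KO. In AhR-KO without LPS S100a9, Ltf, Ngp and Cxcr2 were called lower, and in AhR-KO with LPS S100a9 and Ngp. The part of neutrophils in these results was not tested. At Mmp27, next to Mmp8, the start site peak was called higher with LPS in AhR-KO (0.59 ± 0.07) and not in WT (0.31 ± 0.07). The difference between the genotypes (0.28 ± 0.09) was below the fold threshold. The AhR-KO call was lost without AhR-KO unstimulated 2 or 3 or AhR-KO LPS 4 or 5 (0.55 nearest to 0), and with RLE scaling or DESeq2 (0.55 in both).

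Outside the cluster, most called peaks were higher with LPS, and the 3 lower ones (Mmp9 −4.7 kb, Mmp9 +2.3 kb and Timp1 −6.5 kb) were called in AhR-KO alone (−0.61, −0.70 and −0.64; no genotype difference was called there). At Mmp9 the +6.8 kb peak (chr2:164946933-164948178), in an intron of the longer gene model and next to the basic transcript's start, held 2.53, 2.79 and 4.01 CPM in WT unstimulated and 6.29, 8.12 and 12.1 CPM with LPS, and 2.13, 2.41 and 2.94 CPM in AhR-KO and 6.44, 7.82 and 8.96 CPM with LPS. The treatments were separate in both genotypes (1.60 ± 0.14 and 1.65 ± 0.14, adjusted p = 4.63e-12 and 1.51e-12). The −1.6 kb peak, the nearest one to the 5′ end of the longer model, rose as well (0.69 ± 0.12 and 1.05 ± 0.13, adjusted p = 5.34e-06 and 2.8e-09).

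Mmp14 had the largest log2 fold change with LPS of all 79 peaks in WT, and in AhR-KO its value could not be told apart from that of Mmp13 −10.8 kb. The +14.6 kb peak (chr14:54446010-54446392), just downstream of the gene, held 0.233, 0.303 and 0.392 CPM in WT unstimulated and 2.35, 2.84 and 5.77 CPM with LPS, and 0.228, 0.415 and 0.593 CPM in AhR-KO and 2.47, 3.16 and 3.52 CPM with LPS. All LPS libraries lay far above the others (3.38 ± 0.26 and 2.81 ± 0.24, adjusted p = 1.08e-13 and 9.51e-13). The peak was in no unstimulated library's own peak list, and in that of only 1 library in each LPS group. With at most 0.593 CPM without LPS, the size of the change rests on few counts. Inside the gene, +4.0 kb (1.41 and 1.64) and +10.8 kb (0.68 and 0.61) were also higher, while the start of Mmp14 was not called (33.04 ± 3.02 and 36.5 ± 3.22 CPM in WT, 38.8 ± 2.03 and 38.9 ± 5.51 CPM in AhR-KO). The call at +10.8 kb in AhR-KO was lost without AhR-KO unstimulated 3 or AhR-KO LPS 5 (0.56 nearest to 0). RLE scaling and DESeq2 did not call it either (0.57 in both). At Mmp19 the start was not called either (10.2 ± 0.933 and 9.60 ± 1.28 CPM in WT, 12.03 ± 0.977 and 10.4 ± 0.486 CPM in AhR-KO), and the +4.0 kb peak was higher in both genotypes (0.62 ± 0.18 and 0.81 ± 0.20), in WT not without WT unstimulated 2 or 3 or WT LPS 6 (0.47 nearest to 0).

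At Timp1, 5 peaks were higher with LPS in both genotypes. The start site peak had log2 fold changes of 0.88 ± 0.12 in WT and 1.13 ± 0.11 in AhR-KO (adjusted p = 5.27e-08 and 2.36e-11), and the −2.2 kb peak of 1.05 ± 0.08 and 0.75 ± 0.07 (adjusted p = 5.27e-14 and 2.86e-11). At +10.7 kb, a narrow peak of 158 bases, the values were 1.87 ± 0.48 and 2.69 ± 0.39 (adjusted p = 0.000837 and 1.44e-07) at levels of at most 0.977 CPM. This narrow peak was in the own peak list of only 1 library, of AhR-KO with LPS. The +8.2 kb call in AhR-KO (0.59 ± 0.17) was lost without AhR-KO unstimulated 2, 4 or 6 or AhR-KO LPS 1, 3 or 6 (0.53 nearest to 0). It was also lost with RLE scaling and with DESeq2 (0.55 in both).

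**Figure D4:**
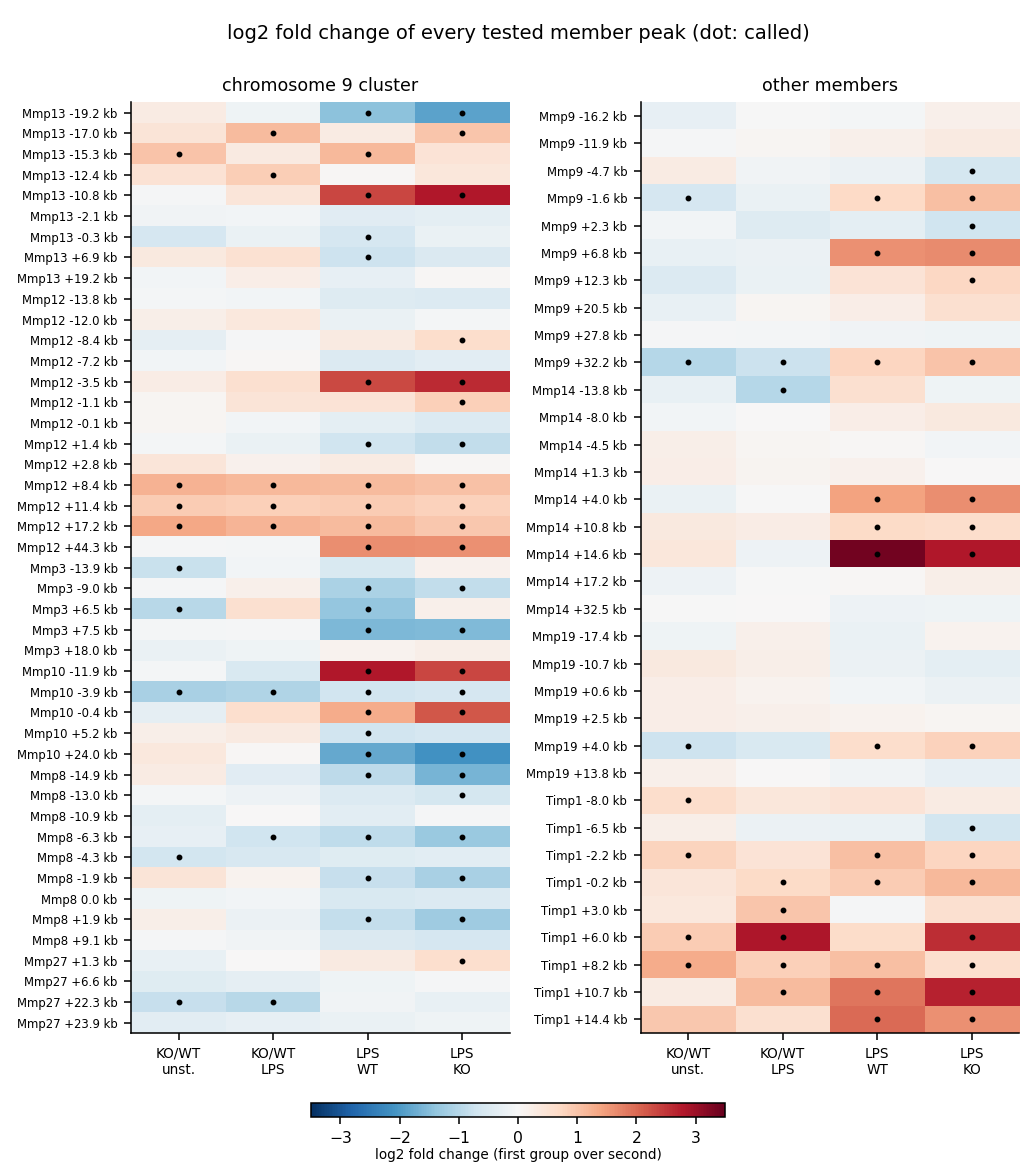
Log2 fold changes of the 79 tested peaks (rows, by gene and kb from its 5′ end) in the 4 comparisons (columns); red is higher and blue lower in AhR-KO or with LPS, and dots mark calls. The Mmp12 +8.4, +11.4 and +17.2 kb and the Timp1 +8.2 kb peaks are red and called in all 4 columns, while every call at Mmp3 and Mmp8 is blue.

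The third question was whether the genotype effect differed between treatments, tested as the interaction. Among the 79 peaks 3 had a higher and 2 a lower effect of AhR-KO with LPS than without, against 10.4% called over all tested peaks (5.83% higher and 4.58% lower). Timp1 +6.0 kb had the largest difference (1.95 ± 0.44, adjusted p = 0.00216), and its levels are given above. Mmp8 −14.9 kb had a genotype effect of 0.30 without LPS and −0.41 with LPS (difference of −0.71 ± 0.16, adjusted p = 0.00207), and neither effect alone was called. Mmp14 −13.8 kb, at the start of Slc7a7, had −0.27 and −0.99 (−0.72 ± 0.21, adjusted p = 0.0201), and without both WT libraries of low chromosome Y counts the difference was −0.59 (adjusted p = 0.0647) and was not called. The other 2 peaks were weak, and DESeq2 called neither (adjusted p = 0.0586 at Mmp3 +6.5 kb and 0.103 at Mmp3 −13.9 kb). Mmp3 +6.5 kb (1.54 ± 0.52, adjusted p = 0.0371; 0.0574 to 0.594 CPM over all libraries) lost its call without any of 11 single libraries (adjusted p of 0.0525 to 0.0901). Mmp3 −13.9 kb (0.67 ± 0.24, adjusted p = 0.0485) lost it without any of 17 (0.0549 to 0.109), and kept it only without WT unstimulated 3 or 5, AhR-KO unstimulated 2, WT LPS 1 or 6, or AhR-KO LPS 4 or 5. The count over the members fell from 5 to 3 without WT unstimulated 4 or 6, AhR-KO unstimulated 1, 3 or 4, WT LPS 4 or AhR-KO LPS 3.

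The start sites of 43 other genes of the family and its surroundings were read in the same way (other metalloproteinases, Adam and Adamts proteases, other inhibitors, proprotein convertases and cathepsins). A start site peak was found for 37, and 36 were tested. In AhR-KO without LPS 1 was higher, Ctsk, a collagen-cleaving cathepsin (0.92), and 4 were lower. The lower ones were the gelatinase gene Mmp2 (−0.71) and Adam19, Adamts5 and Adamts9 (−1.14, −0.73 and −1.27). With LPS none was higher in AhR-KO and 8 were lower, namely these 4 and Mmp15, Mmp25, Adam28 and Adamdec1 (−0.76, −0.78, −0.67 and −0.91). In WT, LPS libraries had higher peaks at Mmp1b, Mmp7, Mmp25, Adamts4 and Adamts9 (0.77 to 1.80) and a lower one at Adam28 (−1.03). In AhR-KO it was higher at Mmp1b, Mmp25, Adam8, Adamts1 and Adamts4 and lower at Mmp23, Timp2, Adam28, Adamdec1 and Ctsk. In the interaction Adam8 was higher (0.61) and Ctsk lower (−0.61). As background, the genotype effect was called at 22.6% of all tested peaks without LPS and at 26.5% with it. The LPS effect was called at 47.0% of them (WT) or 48.8% (AhR-KO), and the interaction at 10.4%. Split by direction, only the 8 lower start sites of AhR-KO with LPS, of 36, were above the background share (13.1% lower). This difference was not tested, and the background share covers all tested peaks, not start site peaks alone. Mmp1b, whose start is also the Mmp12 +44.3 kb peak, is counted in both lists, and Ctsk is in the osteoclast marker list too. Of the latter, 4 of 5 had a start site peak, and their sum was 68.9 to 86.2 CPM in AhR-KO against 56.5 to 61.1 CPM in WT without LPS.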

How the data were processed

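ATAC-seq libraries were processed by the authors with the nf-core atacseq pipeline (release 1.2.1, mm10). The authors deposited raw counts per consensus peak (featureCounts 2.0.1, libraries not pooled) and broad peaks of each library from MACS2, whose ninth column gives −log10 of the q-value. bcl2fastq 2.20.0 is named in the submitters' processing notes. In the deposited count table the starts equal the 0-based starts of the peak list for all 184158 peaks and are printed as given, while sequence windows count from 1. All columns could be mapped to a sample.

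Counts were fitted with edgeR 4.0.16 (R 4.3.3; TMM, filterByExpr, robust quasi-likelihood, group as the only term) over all 24 libraries, and 5 contrasts were tested with Benjamini-Hochberg adjustment. Calls required an adjusted p not above 0.05 together with a change of 1.5-fold or more. DESeq2 1.42.0 served as an alternative. Intervals are 95% and errors of log2 fold changes are SE. Scripts were tested on simulated counts. A start site peak overlaps a transcript start or lies within 1000 bases of it. Named for each gene were its start site peak and its called peak of smallest p in each comparison, and over all genes the 3 largest called changes per comparison; other peaks were named after their values were seen. Replicate numbers were not used for pairing. The genes, gene lists and marker lists were chosen with earlier results of these data known. Low counts limit the precision of weak peaks.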

Additional observations from a re-analysis of the deposited data

Results flagged for a closer look

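Among 148 groups of 6 libraries at 37 named peaks, 6 held 1 library far from the others (by Dixon's critical value at the 95% level), and chance marks about 1 in 20. At the Mmp8 start, WT LPS 6 held 9.13 CPM against 11.3 to 11.97 CPM in the others, and AhR-KO LPS 3 held 9.16 CPM against 10.4 to 11.03 CPM. At Mmp8 −6.3 kb, AhR-KO unstimulated 2 held 5.30 CPM against 7.26 to 7.80 CPM, and AhR-KO LPS 1 held 3.73 CPM against 2.51 to 2.92 CPM. At Mmp9 −1.6 kb, WT unstimulated 5 held 4.42 CPM against 3.27 to 3.62 CPM. At Mmp12 +11.4 kb, AhR-KO LPS 5 held 13.8 CPM against 7.04 to 9.08 CPM.

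The genotype effect was called different between the treatments at 5 peaks by the interaction of the edgeR test. This is 6.33% of the tested members, against 10.4% of all tested peaks. The calls at Mmp3 +6.5 kb and Mmp3 −13.9 kb were lost without any of 11 and 17 single libraries, and DESeq2 called neither. The Mmp14 −13.8 kb call was lost without both WT libraries of replicate 6. The difference in log2 fold change (with LPS minus without) was 1.95 at Timp1 +6.0 kb (adjusted p = 0.00216), −0.71 at Mmp8 −14.9 kb (adjusted p = 0.00207), −0.72 at Mmp14 −13.8 kb (adjusted p = 0.0201), 1.54 at Mmp3 +6.5 kb (adjusted p = 0.0371) and 0.67 at Mmp3 −13.9 kb (adjusted p = 0.0485).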

How the results depend on the processing

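Counts of called member peaks are given as AhR-KO against WT without LPS, the same with LPS, LPS in WT, LPS in AhR-KO, and interaction. The main counts were 16, 15, 35, 40 and 5. With a fold of at least 2 they were 4, 6, 20, 21 and 2, and with no fold minimum 38, 32 and 57 in the first 3 and 9 in the interaction. With a window of 50 kb they were 25, 25 and 56 in the first 3 and 13 in the interaction, and with 5 kb 8, 23, 25 and 2 in the last 4. In the interaction, 3 remained called in number with a minimum of 1 CPM, with thinned libraries, without both WT libraries of replicate 6 (an alternative chosen after the data were seen) and with DESeq2. Higher and lower peaks moved as follows. Without LPS, 8 higher became 3 (fold 2) and 23 (no fold), and 8 lower became 4 (1 CPM), 5 (only the 2 groups fitted, thinned, DESeq2 or 5 kb), 1 (fold 2) and 15 (no fold or 50 kb). With LPS, 10 higher became 5 (fold 2) and 19 (no fold), and 5 lower became 1 (fold 2 or 5 kb), 13 (no fold) and 10 (50 kb). For LPS in WT, 21 higher became 32 (50 kb), and 14 lower became 9 (thinned or 5 kb), 5 (fold 2), 30 (no fold) and 24 (50 kb). For LPS in AhR-KO, 26 higher became 14 (fold 2), and 14 lower became 7 (fold 2 or 5 kb), 25 (no fold) and 24 (50 kb). In the interaction, 3 higher became 1 (1 CPM or DESeq2), 5 (no fold) and 8 (50 kb), and 2 lower became 1 (thinned, without both WT libraries of replicate 6, or without peaks at other genes' starts), 0 (fold 2 or 5 kb), 4 (no fold) and 5 (50 kb). Windows change the members by construction; the cause of the other moves was not tested.

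Among the other family genes, the counts of 5, 8, 6, 10 and 2 became 2, 2, 5 and 0 with a fold of 2 (LPS in WT excepted) and 14, 13, 20, 18 and 4 with no fold minimum. Thinning gave 4 with LPS, and other scaling (RLE) and DESeq2 gave 1 in the interaction. When a library's own peaks had to cover 50% of a start site peak, the sites found in all 6 libraries went from 6, 7, 8 and 8 to 0, 1, 2 and 1.

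Leaving out 1 library gave 12 to 17 member peaks without LPS (6 to 8 higher, 6 to 9 lower), 15 to 19 with LPS (10 to 14 and 5 to 6), 33 to 37 for LPS in WT (20 to 22 and 12 to 15), 38 to 42 for LPS in AhR-KO (23 to 28 and 12 to 16) and 3 to 6 in the interaction (1 to 4 and 2). Of 111 member calls, 19 were lost without some single library. Thinning all libraries to the shallowest (8.54 M counts) lost 15. In at least 1 refit with other libraries, depth, scaling, filter or method, 26 were lost. Over 99 named log2 fold changes, the only reversal was at the Mmp27 start with LPS, where the AhR-KO effect of 0.014 became −0.018 (1 CPM) and −0.0032 (without both WT libraries of replicate 6), and ranged from −0.024 to 0.046 without 1 library. The replicate block gave 16, 15, 35, 40 and 5 member calls and 5, 8, 6, 10 and 2 in the other family. Between the treatments, same-numbered WT libraries deviated together in 5 of 6 pairs (r over 0.1; 0.0576 to 0.367, 4 best with their own number) and AhR-KO libraries in 3 of 6 (0.0115 to 0.228, 3 best), while between genotypes r was −0.170 to 0.293. This is a hint from the data, not the design, and since not every pair was over 0.1 the numbers were not taken as pairs. Both WT libraries of low chromosome Y counts carry the number 6, and no block within a genotype was run.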
